A study of Mus musculus with 10 samples.

Results

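The SLC25 family is the set of carrier proteins that move metabolites across the mitochondrial membranes. Its genes were taken here as the protein-coding genes whose symbol is Slc25a followed by a number, with Slc25a1, Slc25a17 and Slc25a20 left out. Of 40501 genes in the count table, 47 bore such a symbol, 44 were members by that rule, and 38 of the 44 had enough counts to be tested. The tissue was inguinal white adipose tissue, a subcutaneous fat depot, taken from chow-fed male C57/BL6J mice. The Control group held 5 Cre-negative mice (replicates 2, 3, 5, 7 and 8), and the PexRAP-AKO group held 5 Cre-positive mice in which PexRAP was deleted in adipose tissue (replicates 1, 2, 3, 5 and 6). PexRAP, encoded by Dhrs7b and also named ADHAPR, is a reductase of the peroxisomal pathway for ether lipids. One label states 8 weeks of feeding with chow and another states mice 8 weeks old, which leaves the age at harvest unclear. Which promoter drives Cre, which exons are floxed and whether same-numbered samples are related was not stated in the labels.

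The inner mitochondrial membrane is nearly closed to charged metabolites, and SLC25 proteins are the gates through it. Most exchange a substrate of the matrix for one of the cytosol: ADP for ATP, malate for phosphate or for oxoglutarate, aspartate for glutamate. The uncoupling protein Ucp1, which lets brown and beige adipocytes turn the proton gradient into heat, belongs to the same protein family under another name. Carriers are made in the cytosol, handed from the outer membrane import pore to small chaperones between the membranes, and inserted by the TIM22 complex.

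Dhrs7b (ENSMUSG00000042569) stood at 95.8, 61.2, 85.9, 86.0 and 83.2 CPM (counts scaled to a common library size) in the Control libraries and at 22.8, 19.05, 18.03, 21.8 and 17.9 CPM in the PexRAP-AKO libraries. It fell in PexRAP-AKO, with a log2 fold change of -2.05 (SE 0.12, edgeR quasi-likelihood test, adjusted p = 1.54e-05), and every PexRAP-AKO library lay below every Control library. Library totals ran from 11274865 to 19881168 counts. Over all 14913 genes tested, 15 (0.101%) passed an adjusted p of 0.05, 0.0939% on the higher side and 0.00671% on the lower. In bulk tissue, fewer cells of a type and less RNA per cell cannot be told apart. Here and below, values are listed in the order of replicate numbers given above, log2 fold changes are PexRAP-AKO over Control, and p-values are adjusted over all genes tested by the Benjamini-Hochberg method.

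No SLC25 member passed that threshold in edgeR, where adjusted p ran from 0.160 to 0.980 over the 38 tested members. At an unadjusted p under 0.05, 10 members stood higher in PexRAP-AKO and 0 stood lower. These 10 were 26.3% of the tested members, against 9.01% of all genes tested on the higher side and 6.44% on the lower. DESeq2, which called 2.94% of all genes (2.07% as higher), called 2 members, Slc25a10 (adjusted p = 0.0179) and Slc25a39 (adjusted p = 0.0483), while limma voom called 0. Log2 fold changes were above 0 for 25 of 38 members (65.8%, against 49.8% of all genes), with TMM scaling, but for 20 of 38 when libraries were scaled by total counts only. The median over members was 0.08, against 0.00 over all genes, and was 0.003 under total counts, where the median of all genes was -0.07. The groups did not overlap for 2 members, Slc25a44 and Slc25a46, both higher in PexRAP-AKO, against 3.41% of all genes in either direction, 2.08% higher and 1.33% lower. They overlapped under upper-quartile and total-count scaling. Over 22 alternatives, the unadjusted p stayed under 0.05 in all 22 for Slc25a10 and Slc25a39 and in 20 or 21 for Slc25a5, Slc25a11, Slc25a35, Slc25a44 and Slc25a46. It did so in 13 for Slc25a4, 11 for Slc25a51 and 9 for Slc25a3.

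**Figure D1:**
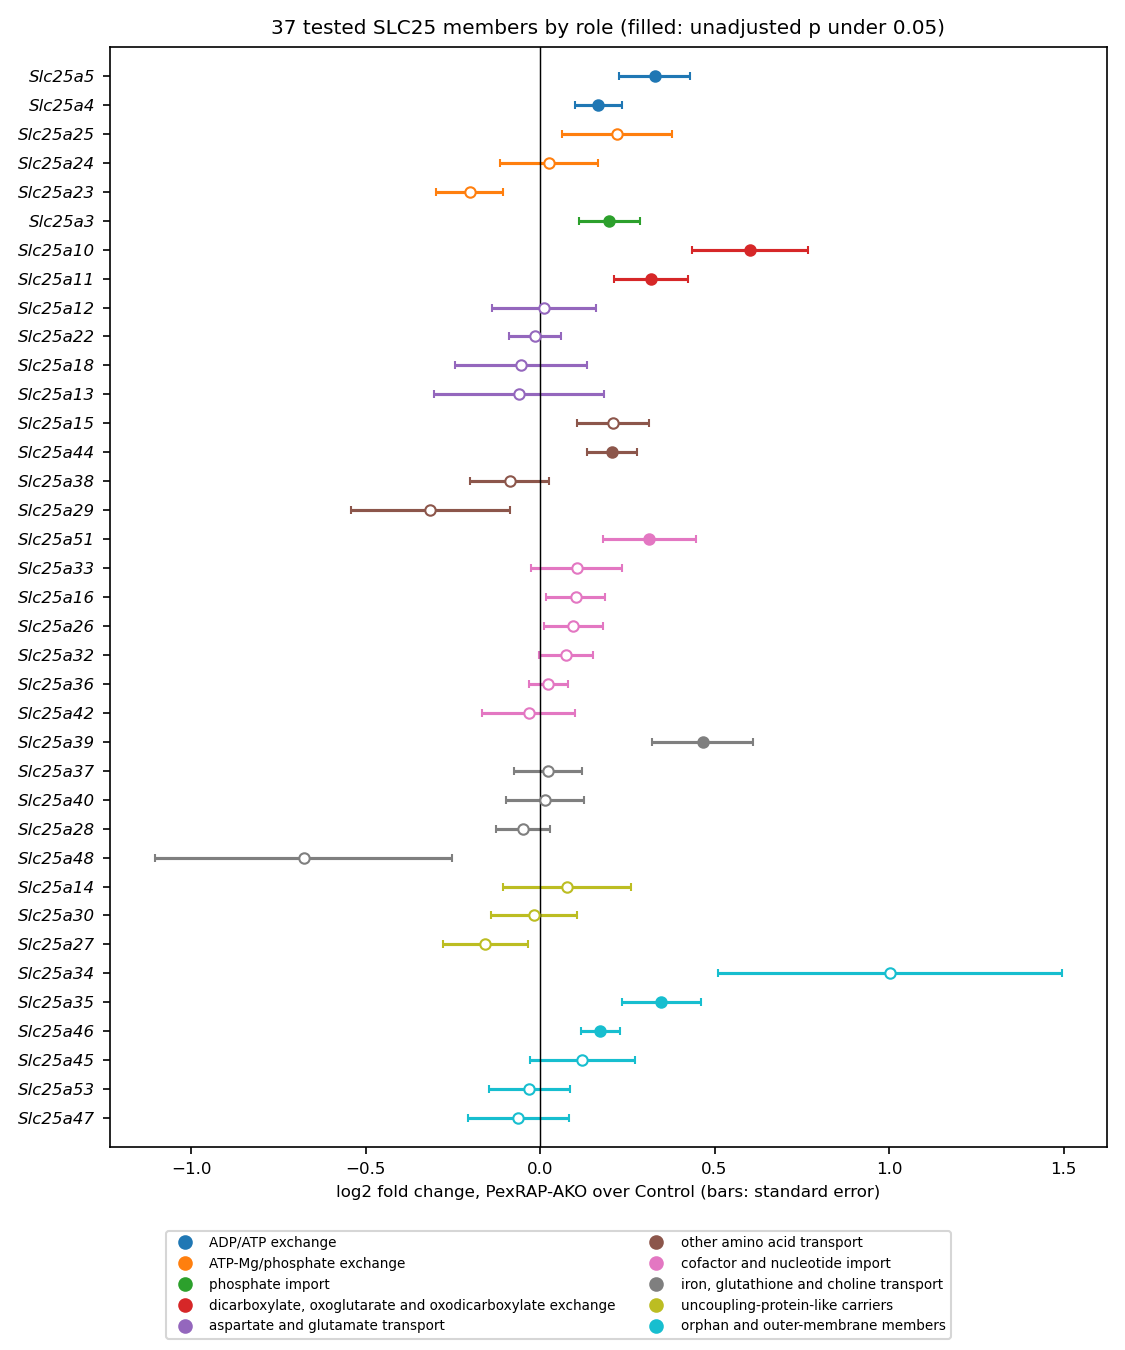
Log2 fold change (horizontal axis, PexRAP-AKO over Control) of 37 of the 38 tested members, grouped and coloured by transport role, with bars for the standard error. Filled points are the 10 members with an unadjusted p under 0.05; all 10 lie above 0, and the aspartate and glutamate carriers lie close to 0.

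Most of these 10 members were abundant ones. Per kilobase of exon, Slc25a10 (118 CPM per kb over all libraries) and Slc25a4 (106) stood above Slc25a5 (76.7), Slc25a3 (58.2) and Slc25a39 (57.0). By group, Slc25a10 stood at 93.8 ± 25.3 and Slc25a4 at 100.1 ± 4.99 CPM per kb in Control, and at 142 ± 21.8 and 112 ± 7.90 CPM per kb in PexRAP-AKO (SD, n = 5 each). Slc25a4 thus had the higher mean of the 2 in Control and Slc25a10 in PexRAP-AKO. Over all libraries, the per-kilobase ranges of Slc25a10 (76.5 to 165) and Slc25a4 (95.3 to 125) overlapped. So did those of Slc25a3 (46.3 to 67.8) and Slc25a39 (37.8 to 77.0). The range of Slc25a5 (55.5 to 93.8) overlapped those of Slc25a10, Slc25a3 and Slc25a39. These pooled ranges do not order such pairs, and a comparison within each library was not tested. Slc25a11 (45.8), Slc25a51 (39.2) and Slc25a44 (33.3 CPM per kb) came next. Split at a mean of 50 CPM, a division chosen after the values were seen, 9 of the 15 abundant members had an unadjusted p under 0.05 on the higher side (60.0%, against 14.5% of the 3767 genes at that level). Below it, 1 of 23 members did (4.3%, against 7.1% of 11146 genes).

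**Figure D2:**
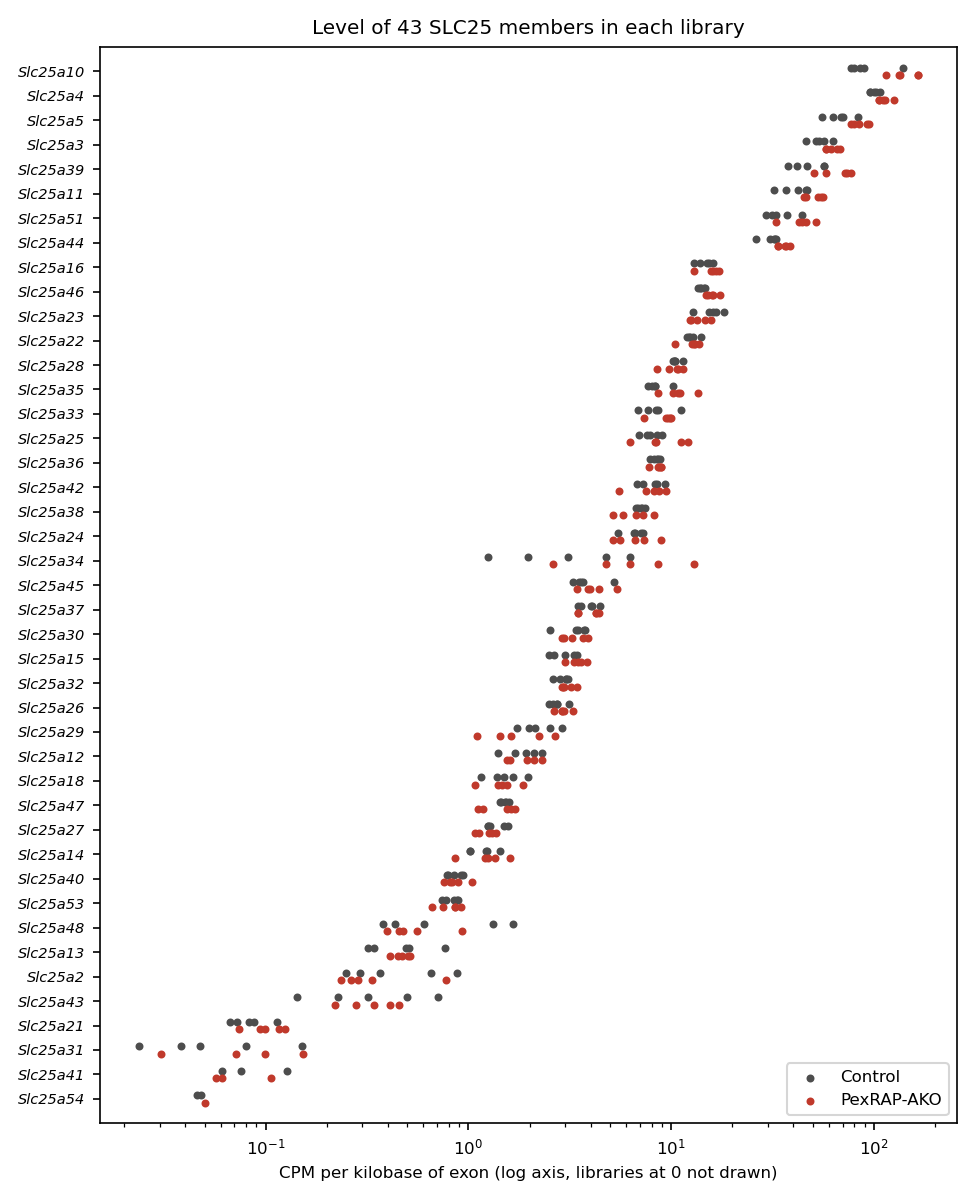
CPM per kilobase of exon (horizontal log axis) of 43 of the 44 members in each of the 10 libraries, Control in grey and PexRAP-AKO in red, ordered by mean. Slc25a10 and Slc25a4 lead, and Slc25a54, Slc25a41, Slc25a31 and Slc25a21 lie lowest.

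The ADP/ATP carriers exchange cytosolic ADP for ATP made in the matrix, and both tested paralogs stood higher in PexRAP-AKO at an unadjusted p under 0.05. Slc25a5 (ENSMUSG00000016319, X, 36795651 to 36798807, plus strand), the form of many proliferating and non-muscle cells, stood at 113, 137, 115, 104 and 91.3 CPM in Control and at 126, 154, 139, 153 and 131 CPM in PexRAP-AKO. Only 3 PexRAP-AKO libraries lay above the highest Control library, replicate 3. Its means were 112 ± 16.8 and 141 ± 12.7 CPM (SD, n = 5 each), a log2 fold change of 0.33 (SE 0.10, edgeR adjusted p = 0.182). Slc25a4 (ENSMUSG00000031633, chromosome 8, 46206797 to 46211284, minus strand), the form of heart and skeletal muscle, stood at 240.2, 252.4, 236, 225 and 224 CPM in Control. In PexRAP-AKO it stood at 267, 295, 249.8, 261 and 249.5 CPM, and 2 of these libraries lay within the Control range. The means were 236 ± 11.7 and 264 ± 18.6 CPM (SD, n = 5 each), a log2 fold change of 0.17 (SE 0.07, edgeR adjusted p = 0.263). The ratio of Slc25a5 to Slc25a4 counts was 0.407 to 0.542 in Control and 0.473 to 0.585 in PexRAP-AKO, a difference of 0.17 on the log2 scale that did not pass an exact two-sided permutation test (p = 0.0952, adjusted p = 0.476 over 10 ratios of paralogs, chosen after the values were seen). Slc25a5 has pseudogene copies whose reads the counting could have shared, and its annotated pseudogene Slc25a5-ps averaged 0.0474 CPM. The testis form, Slc25a31, held 0 to 4 counts a library and was not tested.

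Slc25a3 (ENSMUSG00000061904, chromosome 10, 91116574 to 91124059, minus strand) brings in the phosphate used by ATP synthase. It stood at 286, 349, 314, 297 and 257 CPM in Control and at 341, 376, 323, 365 and 321 CPM in PexRAP-AKO. The groups overlapped, since only replicates 2 and 5 of PexRAP-AKO exceeded replicate 3 of Control. Its means were 301 ± 34.2 and 345 ± 24.9 CPM (SD, n = 5 each), a log2 fold change of 0.20 (SE 0.09, edgeR adjusted p = 0.310). The ATP-Mg/phosphate carriers, which set the size of the matrix adenine nucleotide pool, had 0 of 3 tested members at an unadjusted p under 0.05. Slc25a23 was the one closest to it, with means of 83.7 ± 10.4 CPM in the Control libraries and 72.7 ± 7.47 CPM in the PexRAP-AKO libraries (SD, n = 5 each; log2 fold change -0.20, SE 0.10, edgeR adjusted p = 0.336). Slc25a25 had a log2 fold change of 0.22 (edgeR adjusted p = 0.543) and Slc25a24 one of 0.03. Slc25a41 held 0 to 2 counts a library.

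Slc25a10 and Slc25a11 carry dicarboxylates, and both stood higher in PexRAP-AKO at an unadjusted p under 0.05. Slc25a10 (ENSMUSG00000025792, chromosome 11, 120491840 to 120499187, plus strand) exchanges malate or succinate for phosphate and is abundant in white fat. It stood at 274, 477, 309, 264 and 294.5 CPM in Control and at 395.5, 569, 466, 568 and 460.5 CPM in PexRAP-AKO. Control replicate 3 stood far above the other Control libraries and inside the PexRAP-AKO range. The other 4 Control libraries all lay below the lowest PexRAP-AKO library. Means were 324 ± 87.6 and 492 ± 75.3 CPM (SD, n = 5 each), a log2 fold change of 0.60 (SE 0.17, edgeR adjusted p = 0.160), the lowest adjusted p of the family. Without Control replicate 3 the log2 fold change was 0.78 (SE 0.12, edgeR adjusted p = 0.0219), the only setting other than DESeq2 in which a member passed the threshold. Its unadjusted p was under 0.05 in 22 of 22 alternatives.

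Slc25a11 (ENSMUSG00000014606, chromosome 11, 70644196 to 70647479, minus strand), the oxoglutarate carrier, works in the malate-aspartate shuttle. Its levels were 88.9, 98.1, 99.1, 77.8 and 68.1 CPM in Control and 95.3, 118, 112.5, 116 and 97.6 CPM in PexRAP-AKO. The means were 86.4 ± 13.3 and 108 ± 10.6 CPM (SD, n = 5 each), a log2 fold change of 0.32 (SE 0.11, edgeR adjusted p = 0.207), and 2 PexRAP-AKO libraries fell inside the Control range. All 4 aspartate and glutamate carriers had log2 fold changes between -0.06 and 0.01 and none had an unadjusted p under 0.05: Slc25a12 (0.01, SE 0.15) and Slc25a13 (-0.06, SE 0.24), which exchange aspartate for glutamate, and the glutamate carriers Slc25a22 (-0.02, SE 0.07) and Slc25a18 (-0.05, SE 0.19). Their difference from Slc25a11 was not tested. With these standard errors a change of its size could have been missed for Slc25a12, Slc25a13 and Slc25a18. The oxodicarboxylate carrier Slc25a21 held 4 to 11 counts a library and was not tested.

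Among carriers of other amino acids, 1 of 4 tested members had an unadjusted p under 0.05. Slc25a44 (ENSMUSG00000050144, chromosome 3, 88410498 to 88425139, minus strand) takes branched-chain amino acids into mitochondria of brown fat. It stood at 115, 116.5, 93.8, 118 and 110.2 CPM in Control and at 131.5, 137, 120.0, 119.9 and 130.5 CPM in PexRAP-AKO. All 5 PexRAP-AKO libraries lay above all 5 Control libraries, the nearest pair being 118 and 119.9 CPM. The means were 111 ± 9.91 and 128 ± 7.55 CPM (SD, n = 5 each), a log2 fold change of 0.21 (SE 0.07, edgeR adjusted p = 0.214). Slc25a15, the ornithine carrier of the urea cycle, had a log2 fold change of 0.21 (edgeR adjusted p = 0.357). Slc25a29, which carries basic amino acids, had -0.31 (edgeR adjusted p = 0.546), and Slc25a38, which brings in glycine for haem synthesis, had -0.09. The second ornithine carrier, Slc25a2, held 4 to 24 counts a library.

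Carriers of cofactors and nucleotides had 7 of 8 log2 fold changes above 0 and a median of 0.10, with 1 member at an unadjusted p under 0.05. Slc25a51 (ENSMUSG00000045973, chromosome 4, 45395923 to 45408766, minus strand) imports NAD+ into the matrix. It stood at 181, 204, 243, 173 and 161 CPM in Control and at 180.2, 242, 254, 285 and 234 CPM in PexRAP-AKO. The groups overlapped widely, with Control replicate 5 above 3 PexRAP-AKO libraries. The means were 192 ± 32.5 and 239 ± 38.3 CPM (SD, n = 5 each), a log2 fold change of 0.31 (SE 0.13, edgeR adjusted p = 0.294). Log2 fold changes nearer 0 were found for Slc25a33 (0.10) and Slc25a36 (0.02), which carry pyrimidine nucleotides, Slc25a16 (0.10) and Slc25a42 (-0.03) for coenzyme A, Slc25a26 for S-adenosylmethionine (0.10) and Slc25a32 for folate and FAD (0.07).

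Of the iron, glutathione and choline carriers, 1 of 5 had an unadjusted p under 0.05. Slc25a39 (ENSMUSG00000018677, chromosome 11, 102402985 to 102407946, minus strand) is needed for glutathione import. It stood at 128, 156, 156, 114 and 104 CPM in Control and at 139.6, 198, 202, 212 and 159 CPM in PexRAP-AKO. Replicate 1 was the only PexRAP-AKO library within the Control range. The means were 132 ± 23.8 and 182 ± 31.2 CPM (SD, n = 5 each), a log2 fold change of 0.47 (SE 0.14, edgeR adjusted p = 0.185). Its paralog Slc25a40 averaged 7.20 ± 0.597 CPM in the Control libraries and 7.28 ± 0.906 CPM in the others (SD, n = 5 each), a log2 fold change of 0.01. The ratio of Slc25a39 to Slc25a40 was 13.2 to 23.4 in Control and 15.96 to 31.1 in PexRAP-AKO, a log2 difference of 0.46 (exact two-sided permutation p = 0.0794, adjusted p = 0.476 over the 10 ratios). The mitoferrins Slc25a37 (0.02) and Slc25a28 (-0.05), which import iron, had log2 fold changes near 0. The choline carrier Slc25a48 stood at 2.04, 4.48, 5.58, 1.46 and 1.28 CPM in Control and at 1.54, 3.12, 1.60, 1.89 and 1.34 CPM in PexRAP-AKO. Control replicates 3 and 5 were its highest libraries, and its log2 fold change was -0.68 (SE 0.43, edgeR adjusted p = 0.481), or -0.32 without Control replicate 5.

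**Figure D3:**
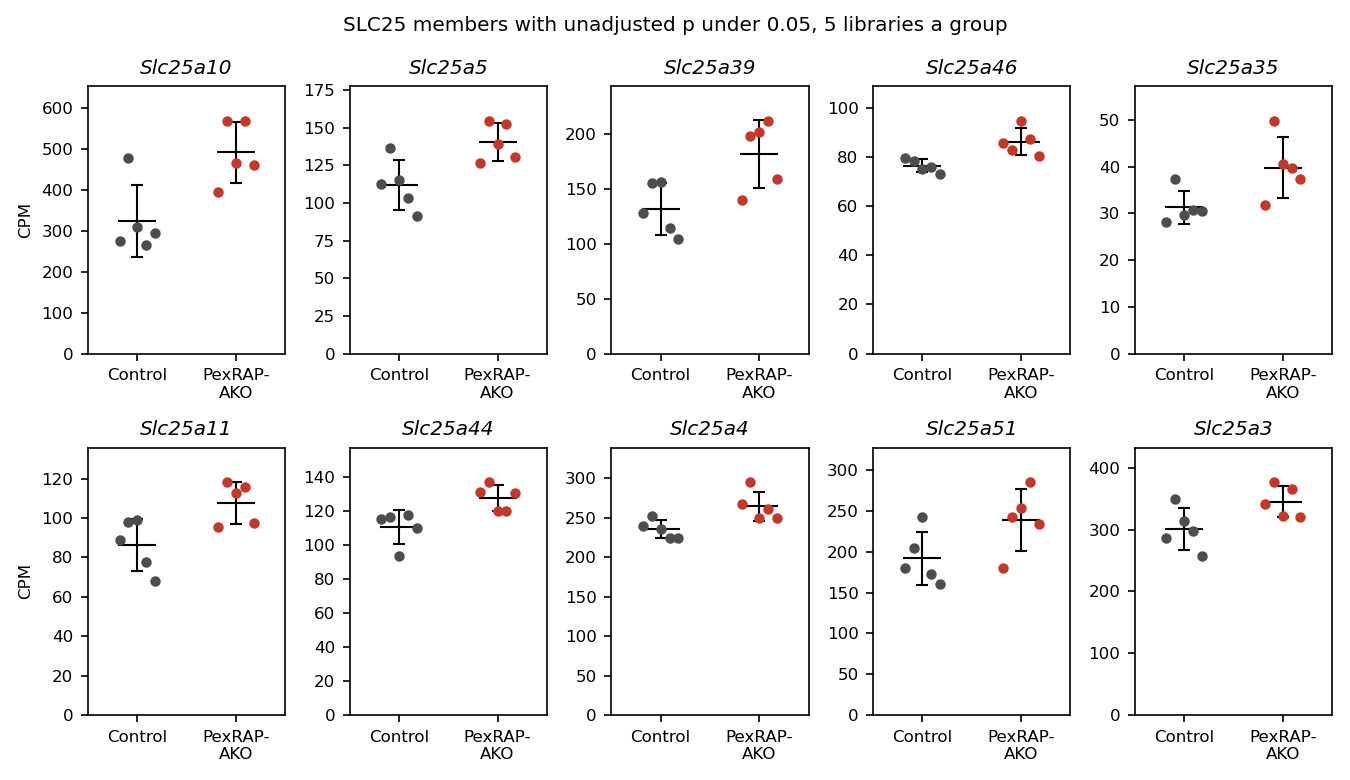
CPM (vertical axes, from 0) of the 10 members with an unadjusted p under 0.05 in each library, with the group mean and SD (n = 5 a group). Slc25a44 and Slc25a46 are the 2 whose groups do not overlap; in Slc25a10, Control replicate 3 lies among the PexRAP-AKO libraries.

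The remaining members are uncoupling-protein-like carriers, orphans and a protein of the outer membrane. The 3 relatives of the uncoupling proteins, Slc25a14 (0.08), Slc25a27 (-0.16) and Slc25a30 (-0.02), had no unadjusted p under 0.05. Slc25a46 (ENSMUSG00000024259, chromosome 18, 31556111 to 31609911, minus strand) sits in the outer membrane and acts in mitochondrial shape and lipid homeostasis. It stood at 79.5, 78.5, 75.0, 75.8 and 73.1 CPM in Control and at 85.7, 82.7, 94.7, 87.4 and 80.2 CPM in PexRAP-AKO. Every PexRAP-AKO library exceeded every Control library. Its means were 76.4 ± 2.62 and 86.1 ± 5.50 CPM (SD, n = 5 each), a log2 fold change of 0.17 (SE 0.06, edgeR adjusted p = 0.188). Slc25a35 (ENSMUSG00000018740, chromosome 11, 68968131 to 68974365, plus strand), an orphan, stood at 28.2, 37.4, 29.6, 30.7 and 30.5 CPM in Control and at 31.7, 49.8, 40.5, 39.7 and 37.3 CPM in PexRAP-AKO. Its log2 fold change was 0.35 (SE 0.11, edgeR adjusted p = 0.2004), with Control replicate 3 at the level of the lower PexRAP-AKO libraries. Slc25a35 shares 1151 of its 3677 exon bases with Rangrf on the opposite strand, which averaged 0.0678 CPM. Slc25a11 shares 189 of 2120 exon bases with Rnf167 (48.1 CPM), also on the opposite strand. Slc25a46 shares 383 of 5425 with B930094E09Rik (1.3 CPM), and Slc25a10 shares 228 of 3455 with Gm11788 (1.36 CPM), likewise on opposite strands. The effect of such sharing on the counts was not tested. Whether strand was used in counting is not given in the sources used here. Slc25a45 (0.12), Slc25a47 (-0.06) and Slc25a53 (-0.03) had log2 fold changes near 0, and Slc25a43 (3 to 25 counts a library) and Slc25a54 (0 to 1) were not tested.

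The largest log2 fold change of the family belonged to an orphan carrier, Slc25a34 (ENSMUSG00000040740, chromosome 4, 141618824 to 141623821, minus strand). It stood at 12.8, 8.26, 16.8, 3.33 and 5.22 CPM in Control and at 6.96, 16.8, 34.7, 23.0 and 12.7 CPM in PexRAP-AKO. The groups overlapped, and only PexRAP-AKO replicates 3 and 5 lay above the highest Control library. The means were 9.27 ± 5.50 and 18.8 ± 10.6 CPM (SD, n = 5 each), a log2 fold change of 1.00 (SE 0.49, edgeR adjusted p = 0.364). Without PexRAP-AKO replicate 3 it was 0.66, and over all alternatives that left out 1 library it ran up to 1.34, without Control replicate 5.

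Several members followed the level of brown adipocyte markers in a library. The brown adipocyte score, the mean log2 CPM of 14 tested marker genes such as Ucp1, Cidea and Cox8b, was 4.98, 5.28, 5.96, 3.84 and 3.46 in Control and 4.54, 5.66, 6.22, 6.23 and 5.59 in PexRAP-AKO. Of the 14, 12 had log2 fold changes above 0, and their summed level ran from 374 to 2423 CPM in Control and from 715 to 3091 CPM in PexRAP-AKO, with no listed gene at 0 in all libraries. At an unadjusted p under 0.05, 3 of the 14 stood higher in PexRAP-AKO and 1 lower, against 9.01% and 6.44% of all genes. The lower one was Prdm16 (log2 fold change -0.31, SE 0.11, edgeR adjusted p = 0.214), and Ebf2 also lay below 0 (-0.06). The group difference in the score did not pass an exact two-sided permutation test (p = 0.135, adjusted p = 0.508 over 8 marker lists). Ucp1 itself ran from 28.6 to 1159 CPM in Control and from 94.2 to 1603 CPM in PexRAP-AKO (log2 fold change 1.12, SE 1.03, edgeR adjusted p = 0.648).

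Across the 10 libraries, Slc25a51 ranked in the same order as the brown score. Its log2 CPM had Pearson r = 0.94 (permutation p = 1e-05, the smallest that 100000 resamples can give; adjusted p = 0.0124 over 14899 genes outside the score) and Spearman rho = 1.0 (permutation p = 1e-05, adjusted p = 0.0154). The adjusted p was also under 0.05, without the same rank order, for Slc25a39 (r = 0.92, rho = 0.95, permutation p = 0.00016 and 0.00012, adjusted p = 0.0219 and 0.0192), Slc25a34 (r = 0.92, rho = 0.94, permutation p = 0.0002 and 0.00021, adjusted p = 0.0238 and 0.0232) and Slc25a11 (r = 0.92, rho = 0.90, permutation p = 0.00023 and 0.00078, adjusted p = 0.0247 and 0.0366). These 4 of 38 members passed on the positive side, where 1.75% of all genes did, and 0 passed on the negative side, where 0.873% did. Without Control replicates 7 and 8, the 2 libraries farthest from the median score, r was 0.95, 0.82, 0.89 and 0.72 for Slc25a51, Slc25a39, Slc25a34 and Slc25a11. With each group's mean removed, r was 0.92, 0.92, 0.89 and 0.90 in the same order. For Slc25a5, r was 0.81 (permutation p = 0.00404, adjusted p = 0.0816) and 0.45 without those 2 libraries. For Slc25a10, r was 0.67 (permutation p = 0.0359, adjusted p = 0.202), and for Slc25a44 it was 0.02. With each group's mean removed, r was 0.74 for Slc25a5, 0.5 for Slc25a10 and -0.58 for Slc25a44. This relation was examined after the values were seen, and the score and the carriers come from the same libraries and scaling.

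**Figure D4:**
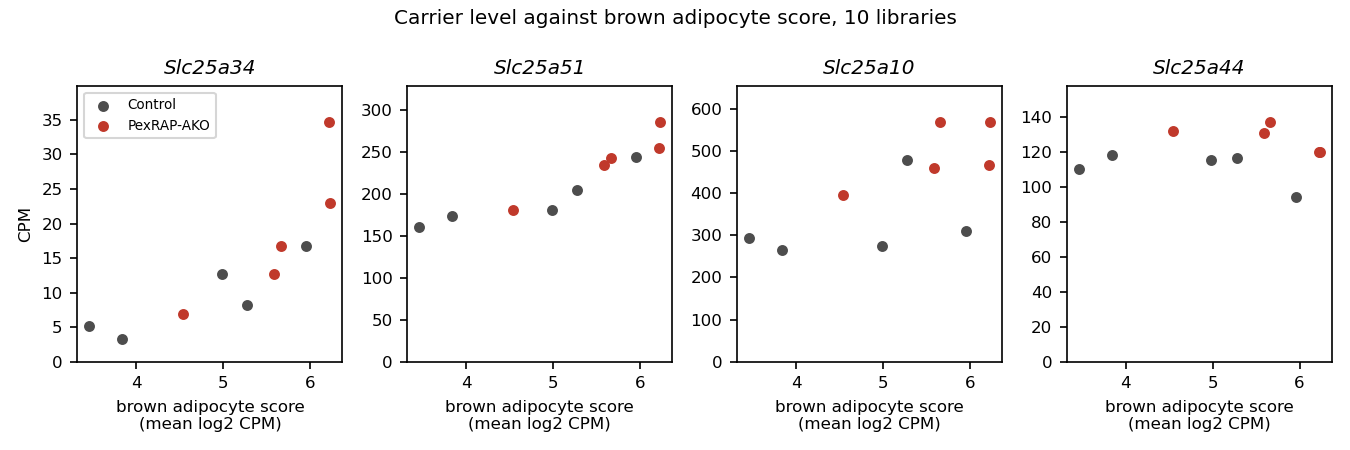
CPM (vertical axes, from 0) of 4 members against the brown adipocyte score (mean log2 CPM of its marker genes) in 10 libraries, Control in grey and PexRAP-AKO in red. Slc25a34 and Slc25a51 climb with the score in both groups. Slc25a44 does not (r = 0.02 over all libraries, -0.58 with each group's mean removed).

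With the brown score as a covariate, 4 of 38 members kept an unadjusted p under 0.05 on the higher side, where 4.99% of all genes did in that fit (8.27% in either direction). They were Slc25a10 (log2 fold change 0.43), Slc25a39 (0.21), Slc25a44 (0.28) and Slc25a46 (0.14). Of the 6 others of the 10, Slc25a51 went from 0.31 to 0.08, Slc25a11 from 0.32 to 0.14, Slc25a5 from 0.33 to 0.19 and Slc25a3 from 0.20 to 0.13. Slc25a35 (0.35 to 0.28) and Slc25a4 (0.17 to 0.14) also no longer had an unadjusted p under 0.05, with fold changes closer to those without the covariate. Slc25a34 went from 1.00 to 0.19. Slc25a48 went the other way, from -0.68 to -1.11, and was the only member with an unadjusted p under 0.05 on the lower side in that fit. No member passed the adjusted threshold there. The skeletal muscle score as a covariate left 7 members higher at an unadjusted p under 0.05, against 7.47% of all genes. Muscle markers summed to 97.2 to 2381 CPM in Control and to 91.8 to 375 CPM in PexRAP-AKO, 0 of 15 had a log2 fold change above 0, and their score had an exact two-sided permutation p of 0.317. Endothelial markers, 0 of 6 above 0, summed to 659.6 to 819.6 CPM in Control and to 486 to 664 CPM in PexRAP-AKO (exact two-sided permutation p = 0.0238, adjusted p = 0.1905 over the 8 lists), and their part in the results was not tested. At an unadjusted p under 0.05, 3 of the 6 stood lower, against 6.44% of all genes. Cdh5 had groups that did not overlap (log2 fold change -0.31, SE 0.10, edgeR adjusted p = 0.188), as did 1.33% of all genes on the lower side. Of the adipocyte markers 2 of 10 were above 0, and they summed to 34040 to 44990 CPM in Control and 33140 to 42460 CPM in PexRAP-AKO. One of the adipocyte markers, Cfd, also had groups that did not overlap (log2 fold change -0.47, SE 0.12, edgeR adjusted p = 0.135). All 9 tested T and B lymphocyte markers were above 0, with sums of 10.1 to 46.5 CPM in Control and 11.3 to 139 CPM in PexRAP-AKO (exact two-sided permutation p = 0.310, adjusted p = 0.508). PexRAP-AKO replicate 6 had the highest lymphocyte score, 3.80, against 0.18 to 1.34 in the rest of its group. Without it and Control replicate 8, the highest Control library in that score, 7 members stood higher and 2 lower at an unadjusted p under 0.05, against 7.13% of all genes on the higher side.

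**Figure D5:**
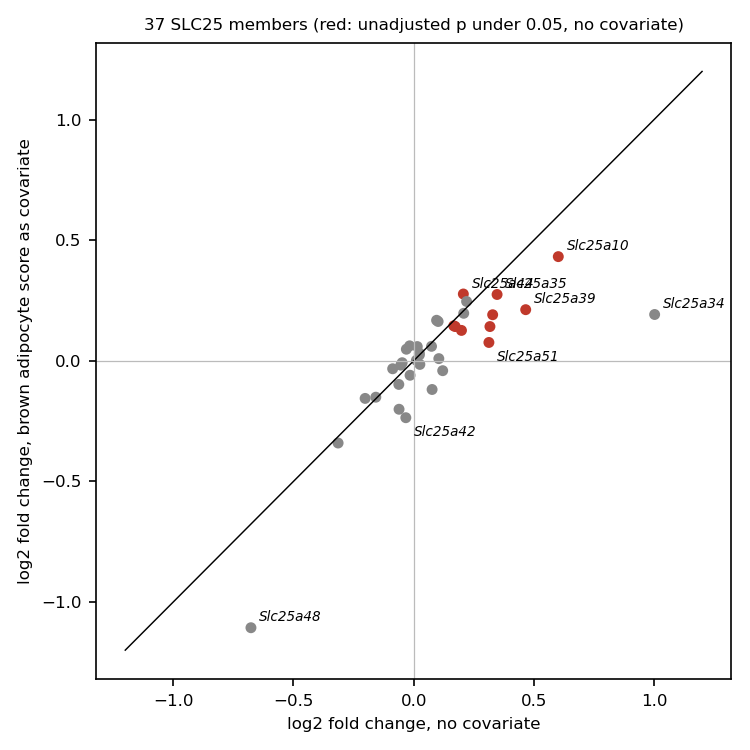
Log2 fold change of 37 of the 38 tested members without a covariate (horizontal axis) and in the fit that includes the brown adipocyte score (vertical axis); the line marks equal values and red points are the 10 members with an unadjusted p under 0.05 without it. Slc25a34 drops from 1.00 to 0.19, and Slc25a44 lies above the line.

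The genes of the route by which carriers reach the inner membrane were also examined. Of 16 listed genes 14 were tested, and 0 passed the adjusted threshold in edgeR. DESeq2 called 5 of the 14, and 2.94% of all genes (2.07% as higher). Limma voom with sample weights called 1, and 107 of 14913 genes. In edgeR without Control replicate 3, 1 was called, and 43 of 14962 genes. At an unadjusted p under 0.05, 11 of 14 stood higher in PexRAP-AKO (78.6%, against 9.01% of all genes) and 0 lower. All 14 had log2 fold changes above 0 (against 49.8% of all genes), with a median of 0.25, whereas 12 of 14 did under total-count scaling. Timm22, the channel of the carrier insertase, stood at 19.9, 23.3, 22.9, 19.2 and 17.8 CPM in Control and at 28.2, 26.9, 30.3, 29.2 and 26.6 CPM in PexRAP-AKO. Its groups did not overlap, and its log2 fold change was 0.45 (SE 0.08, edgeR adjusted p = 0.0737). Tomm70a, the outer membrane receptor for carriers, stood at 106 ± 5.72 and 120 ± 2.38 CPM in Control and PexRAP-AKO (SD, n = 5 each), also with no overlap (log2 fold change 0.18, SE 0.05, edgeR adjusted p = 0.160). These 2 without overlap were 14.3% of the 14, against 2.08% of all genes on the higher side. The chaperones Timm9 (0.51, edgeR adjusted p = 0.143) and Timm13 (0.37, edgeR adjusted p = 0.175) had groups that overlapped. With the brown score as a covariate, 6 of 14 had an unadjusted p under 0.05, all on the higher side, against 4.99% of all genes in that fit.

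The outer membrane channels Vdac1, Vdac2 and Vdac3, through which carrier substrates reach the space between the membranes, had log2 fold changes of 0.23, 0.24 and 0.31 (edgeR adjusted p = 0.210, 0.225 and 0.175). All 3 had an unadjusted p under 0.05, against 9.01% of all genes on the higher side, and 1 did with the brown score as a covariate. Of 5 family members under other names, Mtch2, an outer membrane insertase, averaged 242 ± 38.1 CPM in the Control libraries and 308 ± 34.2 CPM in the PexRAP-AKO libraries (SD, n = 5 each; log2 fold change 0.35, SE 0.11, edgeR adjusted p = 0.1998). Ucp2 (0.02), Ucp3 (0.12) and Mtch1 (0.07) had log2 fold changes nearer 0.

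The stretches upstream of the start site of 3 members are shown to set side by side the carrier with the largest fold change, whose level followed the brown markers (Slc25a34), the carrier with the lowest adjusted p (Slc25a10) and the ADP/ATP carrier on X (Slc25a5). They are 250 bases each, 5′ to 3′ on the gene's strand, from RefSeq (GRCm38.p6). They lie at chr4:141623835-141624084 (minus strand), chr11:120491587-120491836 (plus strand) and chrX:36795347-36795596 (plus strand). Capitals mark TGACCTT, the reverse complement of AAGGTCA, the core letters bound by several nuclear receptors.
Slc25a34: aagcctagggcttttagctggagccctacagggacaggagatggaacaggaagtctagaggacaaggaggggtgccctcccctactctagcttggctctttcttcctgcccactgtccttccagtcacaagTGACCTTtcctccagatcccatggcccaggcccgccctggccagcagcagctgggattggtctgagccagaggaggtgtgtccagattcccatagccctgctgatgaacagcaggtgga
Slc25a10: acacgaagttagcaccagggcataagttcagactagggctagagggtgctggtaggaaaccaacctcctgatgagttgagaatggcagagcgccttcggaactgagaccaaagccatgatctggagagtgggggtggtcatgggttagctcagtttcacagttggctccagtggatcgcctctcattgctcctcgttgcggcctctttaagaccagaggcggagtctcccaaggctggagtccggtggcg
Slc25a5: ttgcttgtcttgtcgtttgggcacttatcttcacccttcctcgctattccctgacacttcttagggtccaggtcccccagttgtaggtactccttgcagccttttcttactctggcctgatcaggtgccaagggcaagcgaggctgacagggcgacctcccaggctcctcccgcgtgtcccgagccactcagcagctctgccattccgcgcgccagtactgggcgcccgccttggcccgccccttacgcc

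Upstream windows were found for 33 of the 44 members, 6 of them among the 10 with an unadjusted p under 0.05. The windows differed in length (60 bases for Slc25a18, 250 for Slc25a5). Some members, such as Slc25a25, had more than 1, and a match in any of them was counted. On either strand, AAGGTCA stood in the window of 1 member, Slc25a34, and in 4.7% of 27025 genes. The longer TCAAGGTCA, which contains it, stood in 0 members and 0.422% of genes. The cyclic AMP element TGACGTCA stood in 2 members, Slc25a25 and Slc25a36, and in 1.77% of genes, and GGGGCGGGG stood in 4 members and 11.8% of genes. The palindromic core of the NRF1 motif stood in 0 members and 0.877% of genes. The letters were chosen after the values were seen, and a match is a run of letters, not a measured site.

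By position, 4 of the 10 members with an unadjusted p under 0.05 lie on chromosome 11 (Slc25a10, Slc25a11, Slc25a35 and Slc25a39), which holds 5 tested members. Of 1254 tested genes on chromosome 11, 126 stood higher at an unadjusted p under 0.05 (10%, near the 9.01% of all genes). Dhrs7b also lies on chromosome 11, at 60830631 to 60860195 on the plus strand, in GRCm38 with GENCODE M21, the source of all gene coordinates here.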

How the data were processed

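RNA of 10 inguinal fat samples was sequenced, 1 library a mouse label. The deposited table holds raw counts per gene. Per the submitters' processing notes, the authors' tools were STAR 2.0.4b, featureCounts of the Subread package, and edgeR. The build, annotation and strand setting behind the counts: not given in the sources used here. Its 40724 rows covered 40501 identifiers, because 117 identifiers were repeated with equal counts, and repeats were dropped. GENCODE M21 held 99.6% of identifiers.

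Counts were filtered with filterByExpr (minimum count 10, minimum total 15), scaled by TMM and tested with edgeR 4.0.16 (quasi-likelihood F test, robust, R 4.3.3), with Benjamini-Hochberg adjustment over 14913 genes and a threshold of 0.05. Standard errors are the log2 fold change over the square root of F. Log2 CPM used a prior count of 2. Correlations with the brown adipocyte score used 100000 permutations, adjusted over 14899 genes. On simulated counts for these 14913 genes the test recovered 47.8% of genes changed 1.5-fold, 76.1% at 2-fold and 90.9% at 4-fold, with 13 false among 156 calls. Alternatives used DESeq2 1.42.0 and limma 3.58.1, other scalings, filters and covariates, and left out each library. No 2 libraries of the same group agreed within sampling noise (lowest chi-square per degree of freedom 7.61). Pairs across groups were not compared.

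The members and gene lists were chosen with earlier results of these data known. Values of every library are given for members with an unadjusted p under 0.05, with groups that do not overlap, or among the 5 highest per kilobase, and for Slc25a34 and Slc25a48, picked after their values were seen. Up to 4 genes of each pathway list were named by p, and other named genes were picked after their values were seen. Nothing says that samples came from separate animals beyond their labels, so p-values measure the spread between these samples. The values of 1 tested member are not reported here, though it is included in the counts over members.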

Additional observations from a re-analysis of the deposited data

Results flagged for a closer look

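Each of 94 groups of 5 libraries (members, family lists and marker scores) was checked for a library whose gap to its nearest neighbour is large against the group's whole range, and 10 were found, against 4.7 by chance. In log2 CPM, Control replicate 3 was high in Slc25a10 (8.90, the others 8.05 to 8.27) and low in Slc25a30 (3.54, the others 3.97 to 4.12). Control replicate 2 was high in Slc25a28 (5.43, the others 5.26 to 5.30), and Control replicate 5 was high in Slc25a45 (3.86, the others 3.19 to 3.37). In PexRAP-AKO, replicate 1 was low in Slc25a22 (5.97, the others 6.24 to 6.36), replicate 3 was low in Slc25a33 (3.80, the others 4.17 to 4.24) and replicate 2 was low in Slc25a36 (6.22, the others 6.37 to 6.42).

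Among marker scores, the adipocyte score of Control replicate 5 was low (10.79, the others 11.07 to 11.15). The skeletal muscle score of PexRAP-AKO replicate 2 was low (0.67, the others 2.74 to 3.55). The mammary and skin epithelium score of PexRAP-AKO replicate 6 was high (3.41, the others -1.11 to -0.12).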

How the results depend on the processing

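Of 836 member values under 22 alternatives, 3 gained a call: Slc25a10 and Slc25a39 in DESeq2, and Slc25a10 without Control replicate 3. The other 833 gained none. With 0 members called in the main fit, none could lose a call, so these counts do not measure stability of size or sign. Up to 6 members had a sign unlike the main fit, that number without PexRAP-AKO replicate 3. Dhrs7b was called in 22 of 22, at log2 fold changes of -2.14 to -1.97. The number of members past the threshold was 0, 2 with DESeq2 and 0 to 1 when a library was left out. The number with an unadjusted p under 0.05 was 10, 5 with the brown score as covariate and 7 to 12 when a library was left out (7 without Control replicate 8). Of all genes, 15.5% had such a p in the main fit, 8.27% with the brown score and 11.5% to 17.8% when a library was left out. Total counts gave 6 members higher and 1 lower (Slc25a23), against 4.29% of all genes on the higher side in that fit. Members whose groups do not overlap numbered 2, but 1 with DESeq2 size factors, 0 with upper-quartile or total-count scaling, 1 with no filter, and 1 to 7 when a library was left out: 7 without Control replicate 3, 4 without PexRAP-AKO replicate 1 and 1 without Control replicate 5. With a library left out, groups separate more easily for any gene. The share of all genes without overlap was not counted in these alternatives, so the member counts have no background here. The members' median ran from 0.04 to 0.09 when a library was left out. Import genes with an unadjusted p under 0.05 numbered 11, 7 under total counts, 6 with the brown score and 8 to 11 without single libraries; the 3 channels fell to 1 with the brown score. Over all genes, 15 were called, 26 with no filter, 439 with DESeq2, 107 with sample weights, 6 with the brown score, 7 with the muscle score, 5 with both Control replicate 8 and PexRAP-AKO replicate 6 left out, and 3 to 58 when a library was left out (3 without Control replicate 8, 58 without PexRAP-AKO replicate 1, 43 without Control replicate 3). The causes were not tested.

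With each group's mean log2 CPM subtracted, same-numbered samples correlated at -0.02, -0.08 and 0.36 for numbers 2, 3 and 5. The highest correlation of those Control samples with a PexRAP-AKO sample of another number was 0.18, 0.36 and 0.4. The numbers were therefore not treated as pairs. With the replicate block, in those 6 libraries only, 3 genes were called and 0 members passed the threshold. At an unadjusted p under 0.05, 6 members, 6 import genes and 1 channel stood higher, against 5.58% of all genes.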
